A study of Mus musculus with 4 samples.

Results

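The genes Prdm1, Irf4, Bcl6, Xbp1, Mzb1, Sdc1, Tnfrsf17, Mef2b, S1pr2 and Derl3 govern or mark the germinal centre reaction and plasma cell differentiation. They were chosen by name, 10 of the 32285 genes in the matrices, and were followed in lymphoma cells of the mouse spleen, in a set of barcodes with a lymphoma transcript and little immunoglobulin, and, for Prdm1 and Irf4, in CD8 T cells. The spleens came from 1 pBIC and 1 pBIC10 mouse, both female and of an age not given in the sources used here. Live cells of each spleen were mixed after sorting to 20% GFP-positive lymphoma and 80% GFP-negative cells, and each mixture gave a 10x 5′ gene expression library and a T-cell receptor library. The labels give both genotypes by name alone. The pBIC strain is known as one in which B cells that have entered the germinal centre reaction lose Trp53 and Prdm1 and express an active NF-kappaB kinase, and pBIC10 takes its name from Il10, with the allele not stated. With 1 mouse and 1 tumour per genotype there is no test of genotype, and genotype, mouse and tumour cannot be told apart.

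In the germinal centre, B cells that express BCL6 divide, mutate their immunoglobulin genes and are selected for affinity. MEF2B supports BCL6 expression, and the receptor S1PR2 holds cells in the centre. Exit towards the plasma cell is driven by IRF4 and PRDM1, which repress the B-cell programme, and by XBP1, which expands the secretory apparatus to which MZB1 and DERL3 belong. SDC1 (CD138) and TNFRSF17 (BCMA) are surface proteins of the finished plasma cell. Lymphomas of the activated B-cell type are known for IRF4 and NF-kappaB activity with a blocked last step of this path.

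The pBIC library held 18129 barcodes with a median of 6235 UMIs (unique molecular identifiers, each 1 captured RNA molecule) and the pBIC10 library 14991 with a median of 5458. Lymphoma barcodes were those with at least 10 UMIs each of Ighv2-9 and Igkv8-30 in pBIC, and at least 10 of Igkv3-1 in pBIC10. After filters, 2439 and 2747 remained, with medians of 17118 and 14639 UMIs. Cd79a, part of the B-cell receptor, had a UMI in 99.9% of the former and 88.6% of the latter. A T-cell receptor beta chain or Cd3e UMI was found in 518 and 347 of them, and Lyz2, a gene of myeloid cells, stood at 73.5 and 642 CPM, so transcripts of other cell types were present in both classes. Summed over 8 markers of monocytes or macrophages, the level was 487 CPM in pBIC and 1214 CPM in pBIC10, with 3 and 5 of them found in at least 10% of barcodes, and over the T-cell markers it was 187 and 193 CPM. Over 7 dendritic cell markers the sums were 94.7 CPM in pBIC and 99.3 CPM in pBIC10, with 1 and 2 found in at least 10% of barcodes. Over 4 NK markers they were 10.7 and 6.29 CPM, with 0 found in at least 10% in either. Il10 RNA was at 34.0 CPM (1561 UMIs) in the pBIC lymphoma against 1.24 CPM (64 UMIs) in that of pBIC10. In all, 712 barcode sequences occurred in both libraries.

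Levels are given as CPM, the UMIs of a gene per 1000000 UMIs outside immunoglobulin genes, summed over the barcodes of a class. Such a level does not tell fewer cells with the transcript from less of it per cell. Intervals in brackets are exact 95% intervals (Poisson for levels, conditional binomial for ratios, Clopper-Pearson for shares) and cover counting error only. A gene was called higher or lower at a 1.5-fold difference whose interval excluded no difference, with at least 20 UMIs over both classes.

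Between the lymphomas, none of the 5 transcription factor genes reached the 1.5-fold limit, although Xbp1 and Mef2b were lower and Irf4 higher in pBIC10 beyond counting error. The members called higher in pBIC10 were 3 genes of the cell surface and 1 of the endoplasmic reticulum. Of the 10 genes, 4 were called higher in pBIC10 (Tnfrsf17, Sdc1, S1pr2 and Derl3), 0 lower and 6 neither. Over all 13824 genes tested in this comparison, 20.0% were higher and 35.3% lower, with a median log2 ratio of -0.28 against 0.38 over the 10. Scaling by TMM factors shifted every ratio by 0.26 on the log2 scale and gave 26.2% higher and 26.2% lower. The split of all genes thus depended on the scaling. For Sdc1 and S1pr2, the levels in both lymphomas did not exceed counting error over erythroid barcodes, which left Tnfrsf17 and Derl3 as the called members above background.

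**Figure D1:**
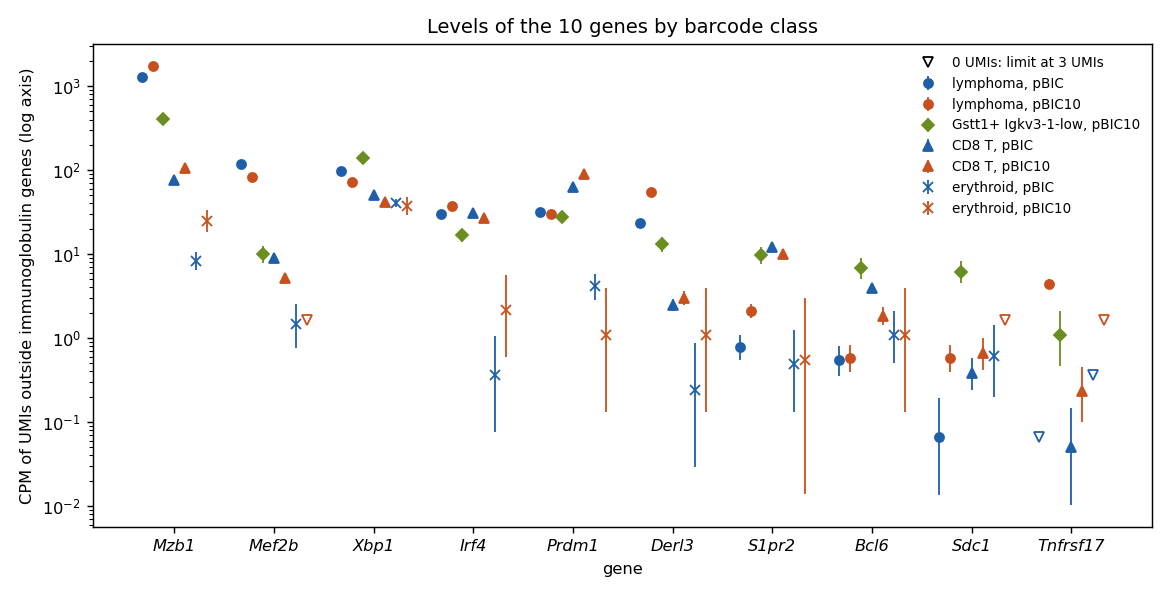
Level of each gene, in CPM on a log axis, in lymphoma, Gstt1-positive Igkv3-1-low, CD8 T and erythroid barcodes of each library, with 95% counting intervals. Open triangles stand for 0 UMIs and are drawn at the level of 3 UMIs. Mzb1, Mef2b and Derl3 were highest in lymphoma barcodes, while Prdm1 was highest in CD8 T barcodes.

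Prdm1 encodes BLIMP1, the repressor that closes the B-cell programme on the way to the plasma cell. The pBIC lymphoma held it at 31.6 CPM (30.04 to 33.3) from 1452 UMIs, and that of pBIC10 at 29.8 CPM (28.3 to 31.3) from 1535 UMIs. The log2 ratio of -0.09 (-0.19 to 0.02) did not exceed counting error. Over 11 settings it ranged from -0.43, as a mean of per-barcode levels, to 0.21, and it turned to 0.17 under TMM scaling, 0.11 with a V segment limit of 30 UMIs and 0.21 with a limit of 3. These transcripts were counted at their 5′ ends, which may lie outside a deleted part of the gene, so they check nothing about a Prdm1 allele and do not show a protein. Erythroid barcodes, where the gene is not thought to act, held 4.12 CPM in pBIC and 1.08 in pBIC10.

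Irf4 encodes the factor that at high levels turns off BCL6 and turns on PRDM1. Its level was 30.1 CPM (28.6 to 31.8) in the pBIC lymphoma and 37.7 CPM (36.0 to 39.4) in the other. The pBIC10 lymphoma was above pBIC beyond counting error, by 0.32 (0.22 to 0.42) on the log2 scale, and below the 1.5-fold needed for a call. Among all classes of at least 50 barcodes, only the other B barcodes of pBIC10 had a higher Irf4 level, 56.8 CPM (41.4 to 76.0) from 45 UMIs.

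Bcl6 encodes the master repressor of the germinal centre, and it was nearly absent from both lymphomas. It gave 25 UMIs in pBIC and 30 in pBIC10, or 0.545 CPM (0.353 to 0.804) and 0.582 CPM (0.393 to 0.831). Neither level exceeded the 1.09 and 1.08 CPM of the erythroid barcodes of the same libraries, so they are read as background, and the log2 ratio of 0.10 (-0.72 to 0.92) ranged from -0.79 to 1.90 over the settings tried. Lymphoma barcodes had the lowest Bcl6 level of all classes, while neutrophil barcodes held 70.0 CPM in pBIC and 22.3 in pBIC10, and monocyte or macrophage barcodes 38.0 and 11.7.

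Mef2b, the gene of a factor that acts upstream of BCL6, was high in lymphoma and in pBIC other B barcodes and low in every other class compared. The pBIC lymphoma held 119 CPM (116 to 123) and that of pBIC10 82.3 CPM (79.8 to 84.8), a log2 ratio of -0.54 (-0.59 to -0.48) that fell short of 1.5-fold. Both lymphomas thus held Mef2b RNA with Bcl6 at background. The erythroid barcodes held 1.45 CPM in pBIC and 0 UMIs in pBIC10. The lower pBIC10 level was called under 2 of the settings tried, the mean of per-barcode levels and a V segment limit of 3 UMIs.

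S1pr2, whose product confines B cells to the germinal centre, was low in both lymphomas. The 36 UMIs of pBIC gave 0.785 CPM (0.550 to 1.09) and the 108 of pBIC10 gave 2.10 CPM (1.72 to 2.53), and these intervals did not overlap. The log2 ratio was 1.42 (0.86 to 2.004). Each level lay within the interval of the erythroid barcodes of its library (0.132 to 1.24 CPM in pBIC and 0.0137 to 3.02 in pBIC10). Other cells held more of it, CD8 T barcodes 12.2 and 10.1 CPM and monocyte or macrophage barcodes 18.8 and 16.5 CPM. In lymphoma barcodes with Cd79a and no T-cell, myeloid, erythroid or NK gene the log2 ratio was 1.52.

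Xbp1 encodes the transcription factor of the unfolded protein response that plasma cells need for secretion. The lymphomas held 97.7 CPM (94.8 to 101, pBIC) and 72.2 CPM (69.9 to 74.6, pBIC10), a log2 ratio of -0.44 (-0.50 to -0.37), lower in pBIC10 beyond counting error and called so as a mean of per-barcode levels alone (-0.59). Xbp1 RNA was widespread: erythroid barcodes held 40.6 and 37.4 CPM and neutrophil barcodes 234 and 351. These counts do not separate spliced from unspliced Xbp1, the step that makes the active factor.

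Mzb1, a chaperone of immunoglobulin assembly in the endoplasmic reticulum, was the member with the most UMIs, 58246 in pBIC and 89010 in pBIC10. These gave 1270 CPM (1259 to 1280) and 1727 CPM (1716 to 1739). The log2 ratio of 0.44 (0.43 to 0.46) was under the limit for a call, passed it under TMM scaling at 0.70, and turned to -0.02 with a V segment limit of 3 UMIs. Other B barcodes held 1068 CPM in pBIC and 848 in pBIC10.

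Derl3 encodes a channel component that passes misfolded proteins out of the endoplasmic reticulum, and is known as a target of XBP1. The pBIC lymphoma held 23.4 CPM (22.0 to 24.8) and the pBIC10 lymphoma 54.5 CPM (52.5 to 56.5), 2.33-fold higher (log2 ratio 1.22, 1.12 to 1.32). Derl3 and Xbp1 thus differed in opposite directions between the lymphomas. CD8 T barcodes held 2.46 and 3.04 CPM, both below the lymphoma levels. The call held in all 11 settings tried, with log2 ratios from 0.79 to 1.48.

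The promoter of Derl3 is shown because Derl3 was the called member with the most UMIs and a known target of the unfolded protein response. RefSeq on GRCm38.p6 places it on the plus strand, and the 250 bases before the start, at chr10:75893148-75893397, are printed 5′ to 3′, with capitals marking the letters CCACG or ACGTGG on either strand.
Derl3: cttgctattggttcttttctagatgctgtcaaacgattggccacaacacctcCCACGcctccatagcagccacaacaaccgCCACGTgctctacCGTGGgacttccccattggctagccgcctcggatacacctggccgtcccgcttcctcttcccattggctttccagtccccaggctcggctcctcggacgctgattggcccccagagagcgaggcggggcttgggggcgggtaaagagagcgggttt
CCACG, part of the endoplasmic reticulum stress element, began 198, 169 and 156 bases before the start, and ACGTGG, the core of the unfolded protein response element, overlapped the middle one on the opposite strand. Promoters were given for 9 of the 10 genes, 2 of them for Bcl6, each with 250 bases before and 50 after the start. CCACG was in a promoter of 6 of the 9 (Prdm1, Irf4, Bcl6, Sdc1, S1pr2 and Derl3) and in 32.8% of 32851 promoters of this length. ACGTGG was in those of Derl3 and Bcl6 and in 8.31% of all, and GTGAAAG, the core of sites bound by PRDM1, was in 0 of the 9 and in 4.24% of all. A match is a string of letters and shows no binding.

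Tnfrsf17, the gene of the survival receptor BCMA, was the member that differed most. It had 0 UMIs in the 2439 lymphoma barcodes of pBIC, which allows a level of up to 0.0654 CPM (3 UMIs), and 226 UMIs in pBIC10, or 4.39 CPM (3.83 to 4.996). Against a floor of 3 UMIs over the pBIC class, this was 67.1-fold higher. With pBIC at 0 UMIs, the lower limit of the conditional binomial interval of the ratio was 5.76 on the log2 scale. Over 10 settings the log2 ratio on that floor ranged from 5.51 to 6.33. In pBIC10 159 barcodes (5.79%, 4.94 to 6.73) held a UMI, against 0.167% of CD8 T barcodes at a median of 7993 UMIs. The level was about as high in barcodes whose leading heavy chain segment was Ighv9-1 (4.45 CPM), Ighv9-3 (4.85 CPM) or, from 8 UMIs, Ighv1-11 (2.99 CPM).

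Sdc1, the plasma cell marker CD138, was rare in both lymphomas. There were 3 UMIs in pBIC, 0.0654 CPM (0.0135 to 0.191), and 30 in pBIC10, 0.582 CPM (0.393 to 0.831), a log2 ratio of 3.15 with a wide interval of 1.47 to 5.51. Erythroid barcodes held 0 Sdc1 UMIs in pBIC10, with an upper limit of 2.0 CPM, and 0.606 CPM (0.197 to 1.41) in pBIC, and monocyte or macrophage barcodes of pBIC10 held 9.48 CPM (8.27 to 10.8). The call was lost in barcodes with Cd79a and no gene of another class, where the log2 ratio was 3.02, and with a V segment limit of 30 UMIs, where it was 1.18. At this depth Sdc1 could not be told from background in either lymphoma.

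**Figure D2:**
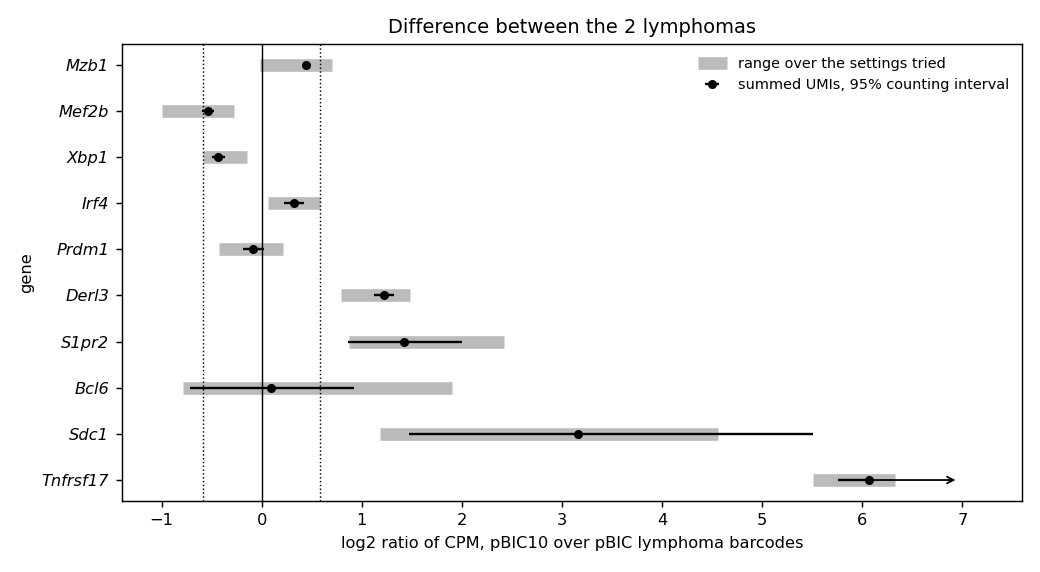
Log2 ratio of CPM, pBIC10 over pBIC lymphoma barcodes, for each gene, with its 95% counting interval. Grey bars span the values over 11 settings (10 for Tnfrsf17, whose arrow marks a bound), and dotted lines mark a 1.5-fold difference. Derl3, S1pr2, Sdc1 and Tnfrsf17 lay right of the line, and Prdm1, Bcl6 and Mzb1 had settings on both sides of 0.

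Shares of barcodes were compared after 2000 UMIs outside immunoglobulin genes had been drawn from each, which left out 0 pBIC and 102 pBIC10 lymphoma barcodes. Mzb1 was found in 89.3% (88.0 to 90.5) and 89.0% (87.7 to 90.1) of them, Xbp1 in 16.2% (14.8 to 17.7) and 11.6% (10.4 to 12.8), and Mef2b in 20.3% (18.7 to 21.9) and 11.1% (9.91 to 12.3). Derl3 went the other way, with 4.47% (3.68 to 5.37) in pBIC and 9.49% (8.40 to 10.7) in pBIC10. Without drawing, these shares were 26.9% and 45.2% for Derl3 and 69.9% and 48.1% for Mef2b. Prdm1 was found in 5.70% and 4.57%, and Irf4 in 5.95% and 5.94%, with overlapping intervals in each pair. With 5000 UMIs drawn, Prdm1 was found in 14.8% (13.4 to 16.3) of pBIC and 11.5% (10.2 to 12.9) of pBIC10 barcodes, intervals that did not overlap, and Irf4 in 12.0% (10.8 to 13.4) and 12.6% (11.2 to 14.03). At 2000 UMIs the erythroid shares were 3.20% and 9.52% for Mzb1, 9.01% and 10.7% for Xbp1, and 1.16% and 0% for Prdm1. The last, 0 of 84 barcodes, allows up to 4.30%. The pBIC10 lymphoma share for Xbp1 lay within the interval of these 84 erythroid barcodes (5.02 to 19.4), although its CPM was above theirs. With 5000 UMIs drawn, the Xbp1 shares in pBIC10 were 24.4% (22.7 to 26.3) in lymphoma and 14.9% (7.66 to 25.0) in erythroid barcodes.

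Of the 45 pairs of members, 11 in pBIC and 9 in pBIC10 met in at least 20 lymphoma barcodes at 2000 UMIs, and 15 and 16 at 5000 UMIs. As a mean over all draws of 2000 UMIs, Prdm1 and Irf4 met in 9.98 pBIC lymphoma barcodes against 8.22 from the product of their shares, a ratio of 1.21, and in 12.4 of pBIC10 against 7.58, a ratio of 1.64. At 5000 UMIs the pair met in 47.2 against 40.5 and in 44.2 against 32.6 barcodes, ratios of 1.17 and 1.36. These ratios were above 1 in both lymphomas and carry no test. Pairs with at least 20 barcodes lay between 0.94 (Prdm1 with Mef2b, pBIC) and 1.22 (Irf4 with Xbp1, pBIC10) at 2000 UMIs. At 5000 UMIs they lay between 0.95 and 1.19 in pBIC and between 0.92 (Prdm1 with Mef2b) and 1.36 in pBIC10, where Prdm1 and Xbp1 met in 81.5 against 62.2 barcodes (1.31). A barcode held a median of 1 member at 2000 UMIs, and 0.779% of pBIC and 0.643% of pBIC10 lymphoma barcodes held 4 or more. At 5000 UMIs the median was 2 and the shares with 4 or more were 6.52% and 6.83%, with up to 6 members in a pBIC and 8 in a pBIC10 barcode, so these shares rose with the number of UMIs drawn.

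Within each lymphoma, Prdm1 was higher where immunoglobulin was. Lymphoma barcodes were divided into tertiles by the immunoglobulin share of their UMIs, with median shares of 0.694% in the lowest and 1.19% in the highest tertile of pBIC, and 0.701% and 2.13% in pBIC10. The share includes the V segment UMIs by which these barcodes were chosen, and their fixed minimum ties it to depth. The tertiles are therefore not independent of the lymphoma rule. Prdm1 went from 25.2 through 30.5 to 41.7 CPM in pBIC (log2 ratio of highest to lowest 0.73, 0.55 to 0.91) and from 23.4 through 25.3 to 36.5 CPM in pBIC10 (0.64, 0.45 to 0.83). It was called higher in both. Of all genes, 2.92% were called higher and 7.07% lower with the immunoglobulin share in pBIC, and 9.26% and 15.8% in pBIC10.

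Of the other members, Xbp1 and Mzb1 were above counting error in the highest tertile of both libraries without reaching 1.5-fold, Xbp1 at 0.33 and 0.51 and Mzb1 at 0.33 and 0.47. Irf4 went from 26.9 to 43.1 CPM in pBIC10 (0.68, 0.50 to 0.86, called) and from 33.0 to 27.3 CPM in pBIC (-0.27, -0.47 to -0.08). Tnfrsf17 went from 1.66 through 3.46 to 6.56 CPM in pBIC10 (1.98, 1.32 to 2.71, called), and Jchain, the joining chain of secreted immunoglobulin, from 569 to 1438 CPM. Tnfrsf17 had 0 UMIs in pBIC and could not be compared there. Bcl6 and Sdc1 were called lower in the highest tertile of pBIC10, at 0.352 against 1.35 CPM and 0.220 against 1.90 CPM.

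RNA of other cells moved with the same division. Lyz2 stood at 2327 CPM in the lowest and 75.2 CPM in the highest tertile of pBIC10, and Cd3e at 97.0 and 7.44 CPM. In pBIC the Lyz2 levels were 139 and 31.8 CPM and those of Cd3e 72.0 and 25.2 CPM. Genes outside the members also rose in pBIC10. Gstt1, a transcript abundant in that lymphoma, went from 299 to 470 CPM and the cell cycle gene Mki67 from 97.6 to 166 CPM, both called higher. In pBIC, Gstt1 went from 32.1 to 21.5 CPM and Mki67 from 423 to 433 CPM, neither called. Median depth moved too, from 10540 to 27417 UMIs in pBIC10 and from 20184 to 14937 in pBIC. Their part in the differences between tertiles was not tested.

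**Figure D3:**
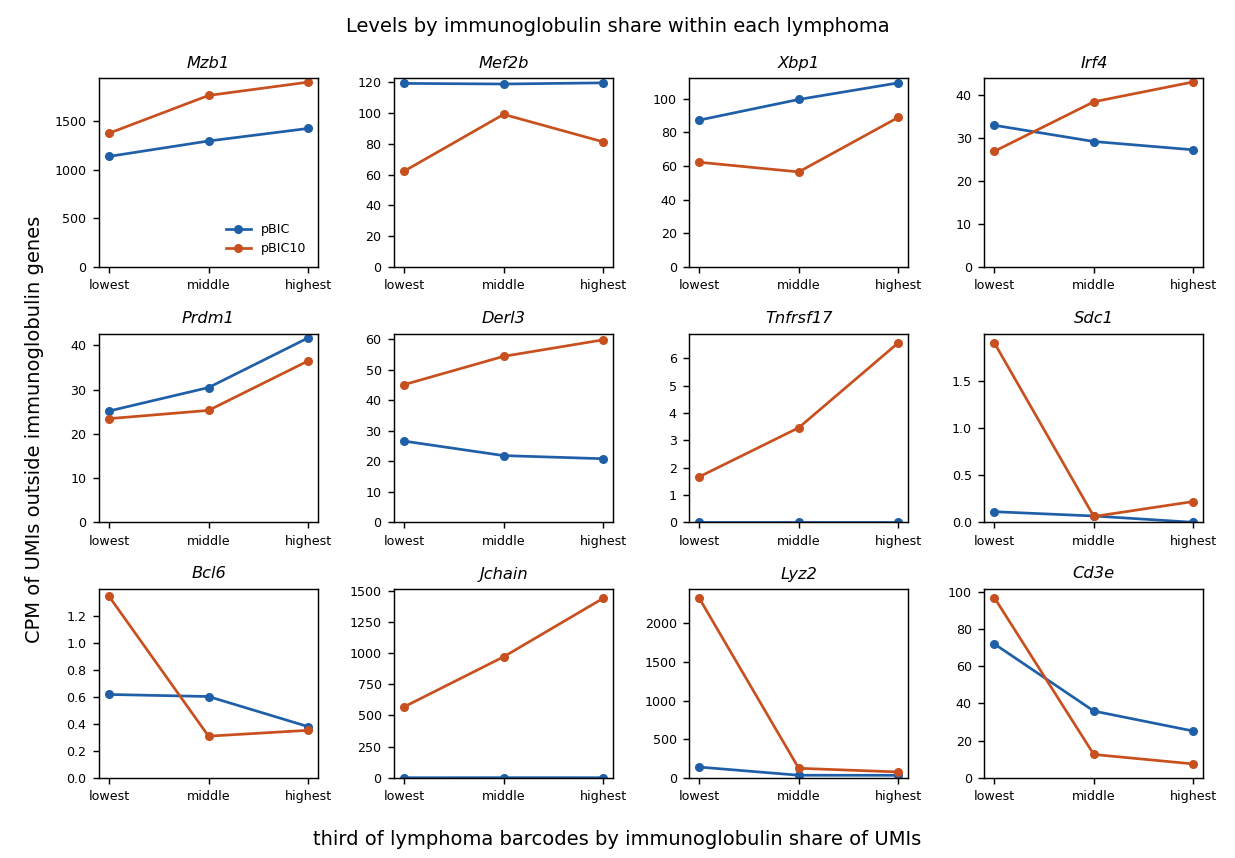
CPM in the lowest, middle and highest tertile of lymphoma barcodes by immunoglobulin share, for 9 members and for Jchain, Lyz2 and Cd3e, pBIC in blue and pBIC10 in orange, each axis from 0. Prdm1 was highest in the highest tertile of both lymphomas, while Lyz2 and Cd3e were highest in the lowest tertile.

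Dividing cells were compared with the rest by the presence of Mki67, a gene of the cell cycle, which had a UMI in 1623 pBIC and 1289 pBIC10 lymphoma barcodes. These barcodes were deeper, at medians of 19432 against 13590.5 UMIs and 26780 against 9154. In pBIC10, Tnfrsf17 was called higher with Mki67, 5.35 against 2.66 CPM (log2 ratio 1.01, 0.55 to 1.497). In pBIC, S1pr2 was called lower, 0.498 against 1.61 CPM (-1.70, -2.73 to -0.67), from 17 and 19 UMIs, where erythroid barcodes ranged from 0.132 to 1.24 CPM. Lyz2 was at 84.8 CPM with and 40.8 CPM without Mki67 in pBIC and at 545 and 816 CPM in pBIC10, and Cd3e at 50.6 and 36.0 CPM and at 27.8 and 36.7 CPM. Their part in these differences was not tested. The other members were called neither in either library. Of all genes, 9.19% were called higher and 3.45% lower with Mki67 in pBIC, and 13.1% and 4.30% in pBIC10.

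The lymphoma barcodes of pBIC10 also differed by their leading heavy chain segment, Ighv9-1 in 1785, Ighv9-3 in 660 and Ighv1-11 in 177. Derl3 was at 56.7 CPM (54.3 to 59.2), 52.5 CPM (48.2 to 57.2) and 40.0 CPM (32.8 to 48.3) in these, so that each of them lay above the 23.4 CPM of the pBIC lymphoma. Xbp1 was at 76.9, 60.1 and 51.9 CPM, each below the 97.7 CPM of pBIC. Mef2b was at 85.0, 72.3 and 102 CPM, and only in the last did its interval (90.6 to 115) come near the pBIC interval. Mzb1 was at 1764 and 1770 CPM in the first pair and 1288 CPM with Ighv1-11, close to the 1270 CPM of pBIC. Median depth was 18350, 11166.5 and 10677 UMIs.

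Barcodes with an Il10 UMI could be compared in pBIC, at 5000 UMIs drawn. Irf4 was found in 18.2% (14.2 to 22.7) of 336 lymphoma barcodes with Il10 and in 11.1% (9.74 to 12.5) of 2071 without. Prdm1 was found in 16.4% (12.6 to 20.8) and 14.6% (13.1 to 16.2), with overlapping intervals. In pBIC10, Mzb1 was found in 98.4% (97.8 to 98.9) of 1983 lymphoma barcodes with Jchain and 86.4% (81.5 to 90.5) of 243 without, and Derl3 in 22.8% (21.0 to 24.8) and 14.4% (10.2 to 19.5).

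The other genes of the path divided in the lymphoma comparison. Of all genes tested in that comparison, 20.0% were higher in pBIC10 and 35.3% lower. Of 22 listed germinal centre genes 20 were tested, and 6 were higher in pBIC10, 11 lower and 3 neither, with a median log2 ratio of -0.87 against -0.28 over all genes. Those higher included Basp1, from 0.785 CPM in the pBIC lymphoma to 16.2 CPM in the other, the death receptor gene Fas (2.11 and 26.2 CPM) and Fcrla (28.7 and 201 CPM). Lower were Hmces (32.7 and 2.83 CPM), Cxcr5, the receptor that leads B cells to follicles (99.1 and 14.6 CPM), and the B-cell transcription factors Spib (277 and 47.1 CPM) and Ebf1 (86.7 and 18.0 CPM). The list thus held members in both directions.

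All 29 listed plasma cell and secretory genes were tested, with 10 higher, 9 lower, 10 neither and a median log2 ratio of -0.04. The shares over all genes were 20.0% higher and 35.3% lower. Jchain went from 22 UMIs (0.479 CPM) in the pBIC lymphoma to 1078 CPM in the other. Ly6c2 (8.87 and 31.9 CPM), the elongation factor Ell2 (17.6 and 55.1 CPM) and the disulfide isomerase Pdia6 (110 and 314 CPM) were also higher. Genes of the same organelle were lower, among them Pdia4 (655 and 186 CPM), Herpud1 (182 and 63.6 CPM) and Txndc5 (266 and 117 CPM), as was Tent5c (65.0 and 14.5 CPM), which stabilises secretory transcripts. TMM scaling gave 14 higher and 8 lower, and it moved the shares over all genes in the same directions.

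The list of B-cell genes that PRDM1 is known to repress had 1 member higher in pBIC10, 6 lower and 3 neither among 10, with a median log2 ratio of -0.82. Lower were Spib, the B-cell identity factor Pax5 (108 CPM in pBIC and 30.6 in pBIC10) and Myc (340 and 164 CPM). The summed level of Prdm1 itself did not differ beyond counting error. In the list of 19 activation and NF-kappaB genes, 6 were higher, 6 lower and 7 neither, with a median of 0.24. Both lists stand beside 20.0% higher and 35.3% lower over all genes. Batf (29.2 and 196 CPM), Irf8 (151 and 728 CPM) and Ebi3 (54.0 and 130 CPM) were higher, and the feedback inhibitors Tnfaip3 (170 and 27.8 CPM) and Nfkbia (633 and 329 CPM), Rel (109 and 44.1 CPM) and Ikzf1 (255 and 114 CPM) lower.

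A further 1095 barcodes of pBIC10 held Gstt1, a transcript abundant in its lymphoma, with fewer than 10 Igkv3-1 UMIs and no Cd3e UMI. They were proposed as lymphoma-like cells low in immunoglobulin, and for the set as a whole their genes did not bear this out. Their median depth was 3115 UMIs, Cd79a had a UMI in 30.3%, and Lyz2 stood at 8012 CPM and S100a8, a neutrophil gene, at 4997 CPM, against 642 and 415 CPM in the lymphoma. Of the 8 monocyte or macrophage markers 6 had a UMI in at least 10% of the barcodes, with a summed level of 10591.5 CPM. Of 8 B-cell markers 7 did so, with a sum of 12740.5 CPM against 14032.3 CPM in the lymphoma. Most of it was Cd74 (8716 CPM) and H2-Aa (3516 CPM). Of 5 plasma cell markers other than members 4 did so, with a sum of 251 CPM against 1370 CPM in the lymphoma. The marker lists were thus mixed. The barcodes are therefore called by their rule, Gstt1-positive and Igkv3-1-low, and given no cell type.

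Measured as a whole, this set differed from the lymphoma of the same library in 9 of 10 members, with 4 higher, 5 lower and Prdm1 neither. Over the 13137 genes tested, 28.7% were higher and 14.1% lower. Higher were Bcl6 (6.83 against 0.582 CPM), Sdc1 (6.16 against 0.582 CPM), S1pr2 (9.64 against 2.10 CPM) and Xbp1 (137 against 72.2 CPM). Lower were Mef2b (9.91 against 82.3 CPM), Mzb1 (403 against 1727 CPM), Derl3 (13.0 against 54.5 CPM), Tnfrsf17 (1.07 against 4.39 CPM, 8 UMIs in the set) and Irf4 (16.7 against 37.7 CPM). The members that were higher are those that stood high in myeloid barcodes, where monocyte or macrophage barcodes of pBIC10 held 11.7 CPM of Bcl6, 9.48 of Sdc1, 16.5 of S1pr2 and 214 of Xbp1.

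Genes of other cell types moved with several of these differences, and the set was divided by them. Only 223 of the 1095 barcodes had a Cd79a UMI and no gene of another class (such as Csf1r, Csf3r, Ncr1 and Flt3), and they held Lyz2 at 435 CPM. Of these genes of other classes, Flt3 stood at 8.19 CPM in the lymphoma itself and 6.83 CPM in the whole set. In the 223 barcodes 0 members were called higher and 1 lower, Mef2b at 20.9 CPM (log2 ratio -1.98, -2.55 to -1.46). The share of all genes called was not computed for these 223 barcodes. They hold fewer UMIs than the whole set, which leaves fewer genes that can be called. The smaller counts are therefore not read as a result about the members. Sdc1, Bcl6 and S1pr2 had 3, 2 and 7 UMIs there, with ratios of 1.84, 1.26 and 1.22 whose intervals include 0. Irf4 stood at 41.7 CPM, a log2 ratio of 0.15 (-0.25 to 0.52), and Xbp1 at 51.5 CPM, a ratio of -0.49 (-0.84 to -0.16), both with the sign opposite to that of the whole set. Mzb1 at 1224 CPM (-0.50, -0.57 to -0.43) and Derl3 at 36.9 CPM (-0.56, -0.98 to -0.17) were lower beyond counting error without reaching 1.5-fold. Prdm1 was at 44.5 CPM, from 64 UMIs. The 351 barcodes with such a gene and no Cd79a UMI held Lyz2 at 12519 CPM, Mzb1 at 58.1 CPM and Xbp1 at 194 CPM. A further 412 barcodes had neither, at a median of 1533 UMIs, and 109 had both. Onecut2, at 94.7 CPM in the lymphoma, stood at 57.7 CPM in the 223 and 67.3 CPM in the 412 barcodes, against 11.4 CPM in the 351. Parm1, at 123 CPM in the lymphoma, stood lower in each, at 46.6, 21.7 and 7.19 CPM. In the 412, 4 of the 5 members lower in the whole set were also called lower, Mzb1 at -2.68, Mef2b at -2.09, Derl3 at -1.68 and Irf4 at -0.65, while Lyz2 was at 2242 CPM. For the 412 too the share of all genes called lower was not computed, so this count has no background to stand beside.

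**Figure D4:**
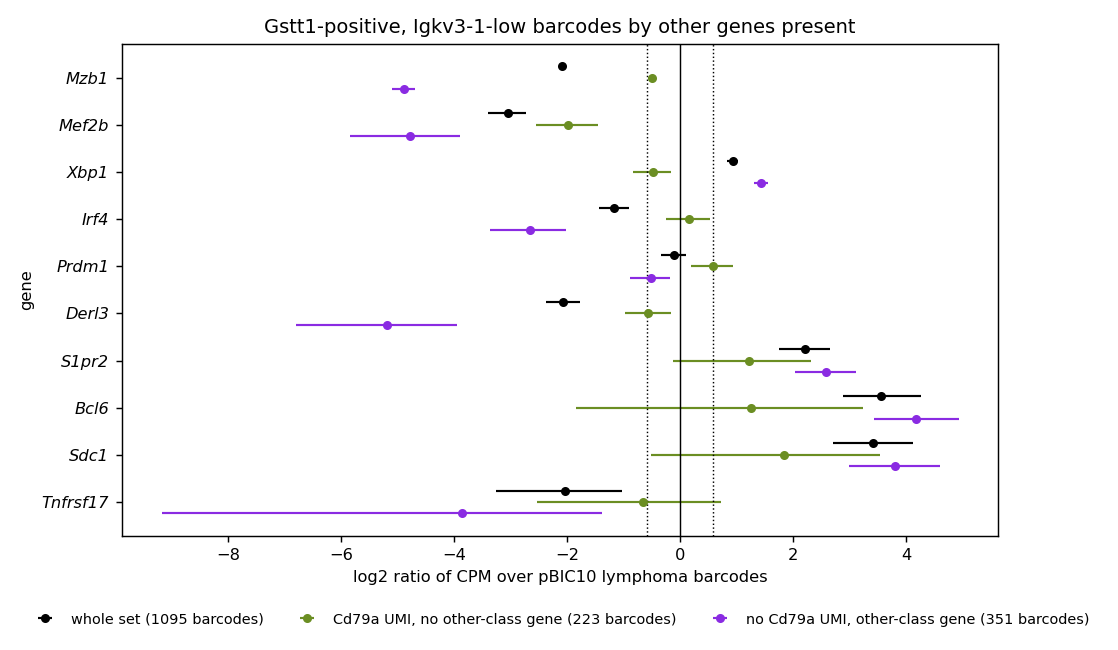
Log2 ratio of CPM over pBIC10 lymphoma barcodes for the Gstt1-positive, Igkv3-1-low barcodes as a whole (black), those with Cd79a and no gene of another class (green) and those with such a gene and no Cd79a (purple), with 95% counting intervals and dotted lines at 1.5-fold. Only Mef2b lay left of the line in the green set with an interval that excluded 0.

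In the same set, Xbp1 and Mzb1 met in fewer barcodes than their shares give, a mean of 33.7 against 56.4 at 2000 UMIs (ratio 0.598, of 702 barcodes). The lymphoma ratios for this pair were 1.01 and 0.975. Prdm1 and Irf4 met in 4.44 against 1.06 barcodes, too few to read. Of all genes tested, 28.7% were higher in this set than in the lymphoma and 14.1% lower. The gene lists in this set had 4 higher and 11 lower of 19 germinal centre genes, and 4 and 13 of 29 plasma cell and secretory genes. They had 1 and 7 of 10 genes that PRDM1 represses, and 5 and 7 of 19 activation and NF-kappaB genes. Cd93, Ly6c2 and Fkbp11 among the plasma cell list and Spi1, Bcl2a1b and Batf3 among the NF-kappaB list led those higher, and Ly6c2 (352 against 31.9 CPM) and Spi1 (394 against 60.7 CPM) are also genes of myeloid cells. Lower were Jchain (117 against 1078 CPM), Fcrla (21.8 against 201 CPM) and Cd83 (28.4 against 115 CPM).

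CD8 T barcodes, those with a T-cell receptor beta chain and at least 1 Cd8a or Cd8b1 UMI, numbered 6422 in pBIC and 3003 in pBIC10, with medians of 6791 and 7993 UMIs. In T cells, PRDM1 and IRF4 act downstream of the antigen receptor in effector and exhausted differentiation. Prdm1 was at 62.3 CPM (60.3 to 64.3) in the CD8 T barcodes of pBIC against 89.5 CPM (86.3 to 92.7) in those of pBIC10. The intervals did not overlap, and the log2 ratio of 0.52 (0.45 to 0.59) fell just short of the 1.5-fold needed for a call. It passed that limit as a mean of per-barcode levels (0.72) and under TMM scaling (0.67), and lay between 0.50 and 0.53 in the other settings.

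Irf4 was nearly level in CD8 T barcodes, at 30.6 CPM (29.2 to 32.03) and 27.1 CPM (25.4 to 28.9), a log2 ratio of -0.17 (-0.29 to -0.06) that moved to -0.03 under TMM scaling and turned to 0.18 as a mean of per-barcode levels. Of the 13961 genes tested in this comparison 14.9% were higher and 22.3% lower, or 18.6% and 16.1% under TMM scaling. At 2000 UMIs, Prdm1 was found in 11.6% (10.8 to 12.4) of pBIC and 18.3% (17.0 to 19.8) of pBIC10 CD8 T barcodes, and without drawing in 33.9% and 51.4%. Irf4 was found in 4.89% (4.37 to 5.45) and 5.45% (4.66 to 6.33), and without drawing in 16.6% and 20.1%.

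Prdm1 in CD8 T barcodes was lowest in barcodes that were alone in their clonotype, the set of barcodes with the same receptor. In pBIC10 it stood at 64.8 CPM (60.3 to 69.6) in the 933 barcodes alone in their clonotype, 94.8 CPM (89.7 to 100) in clonotypes of 2 to 9 barcodes and 113 CPM (106 to 120) in those of 10 or more, and none of these intervals overlapped. In pBIC the values were 50.1 CPM (44.99 to 55.6), 63.6 CPM (59.5 to 68.0) and 64.1 CPM (61.6 to 66.6), and the intervals of the larger sizes overlapped. At 2000 UMIs the shares with Prdm1 were 13.0% (10.9 to 15.3), 20.2% (17.9 to 22.7) and 21.4% (18.8 to 24.3) in pBIC10, and 9.84% (7.87 to 12.1), 11.3% (9.75 to 13.0) and 12.1% (11.1 to 13.1) in pBIC, where all intervals overlapped. The largest 5 clonotypes of pBIC10 (53 to 111 barcodes) ranged from 111 to 161 CPM and those of pBIC (109 to 314 barcodes) from 43.8 to 77.9 CPM. These levels did not overlap, but some of their intervals did, such as 63.4 to 94.8 CPM in pBIC and 90.6 to 145 CPM in pBIC10. In pBIC the second largest, of 231 barcodes, lay below the level of single barcodes and the largest was at 54.0 CPM (46.3 to 62.7). Irf4 went from 21.1 to 32.5 CPM in pBIC and from 24.3 to 34.0 CPM in pBIC10 between single barcodes and clonotypes of 10 or more.

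**Figure D5:**
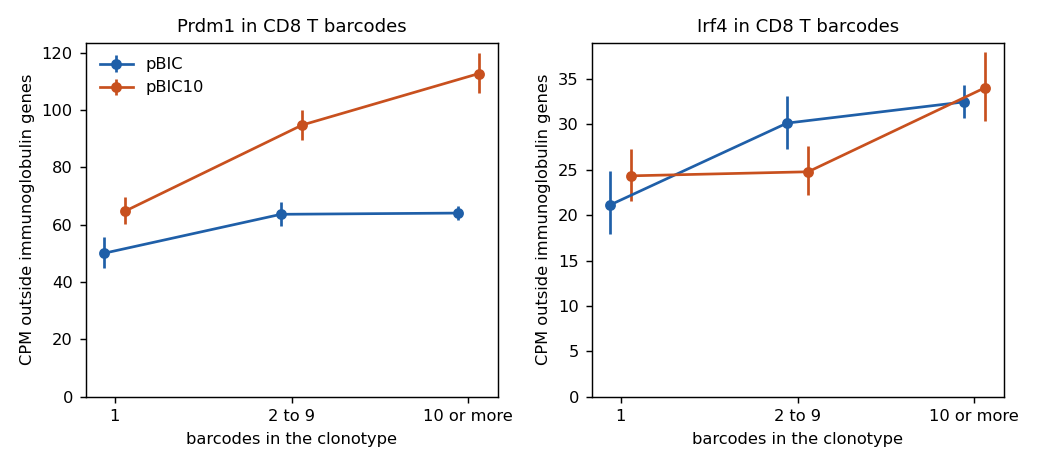
CPM of Prdm1 and Irf4 in CD8 T barcodes by the number of barcodes in the clonotype, pBIC in blue and pBIC10 in orange, with 95% counting intervals and axes from 0. Prdm1 reached 113 CPM in clonotypes of 10 or more barcodes in pBIC10 and 64.1 CPM in pBIC.

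Tcf7, Havcr2, Pdcd1 and Gzmb divided Prdm1 in the same direction in both libraries. With Tcf7, a gene of stem-like and resting T cells, Prdm1 was found in 7.02% (4.85 to 9.76) of pBIC barcodes against 12.0% (11.1 to 12.8) without, and in 0.794% (0.0201 to 4.34) of 126 pBIC10 barcodes against 19.1% (17.7 to 20.6). With Havcr2, an inhibitory receptor gene of exhausted cells, the shares were 15.9% against 10.2% in pBIC and 24.4% against 15.9% in pBIC10. With Pdcd1 they were 13.4% against 10.7% and 24.7% against 16.1%, and with Gzmb 12.4% against 7.82% and 20.3% against 15.4%. With Mki67 they were 12.0% against 11.5% and 15.9% against 18.8%, and with Cx3cr1, a gene of effector cells, 9.82% against 11.7% and, in 52 barcodes, 26.9% against 18.2%. For these 2 genes the direction differed between the libraries and the intervals overlapped.

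CD8 T barcodes with Il10 held both factors more often. Prdm1 was found in 24.8% (20.2 to 29.8) of 331 pBIC barcodes with Il10 and 10.9% (10.1 to 11.7) without, and in 29.9% (22.4 to 38.3) of 137 against 17.8% (16.4 to 19.2) in pBIC10. Irf4 was found in 16.0% (12.2 to 20.4) against 4.27% (3.78 to 4.82) in pBIC and in 11.7% (6.83 to 18.3) against 5.14% (4.36 to 6.03) in pBIC10. Prdm1 and Irf4 met in a mean of 57.5 barcodes against 36.3 from their shares in pBIC (ratio 1.58) and 40.4 against 29.8 in pBIC10 (1.36). Lymphoma RNA was present among these barcodes: Mzb1 and Mef2b met in 26.7 pBIC CD8 T barcodes against 5.06, Cd79a had a UMI in 28.9% and 17.1%, and 115 and 109 barcodes also met the lymphoma rule. Without barcodes holding Cd79a the log2 ratio of Prdm1 between the libraries was 0.50 and that of Irf4 -0.19.

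Across all classes of at least 50 barcodes the members fell into separate orders. Prdm1 was highest in T cells, with CD8 and CD4 T barcodes of pBIC10 at 89.5 and 89.0 CPM and those of pBIC at 62.3 and 66.5 CPM, neighbours that did not differ beyond their intervals, and both lymphomas lay below the other B barcodes of pBIC (39.8 CPM) and pBIC10 (64.4 CPM). Mzb1, Derl3 and Tnfrsf17 were highest in pBIC10 lymphoma barcodes, and Mef2b in pBIC lymphoma barcodes at 119 CPM, followed by the other B barcodes of pBIC at 95.3 CPM. The other B barcodes of pBIC10, 151 in number, held only 6.31 CPM of Mef2b from 5 UMIs. S1pr2 was highest in CD4 T barcodes of pBIC (19.1 CPM), which did not differ from its monocyte or macrophage barcodes (18.8 CPM), and Xbp1 in neutrophil barcodes.

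Over 18 profiles, each a class in 1 library, the 10674 other genes with at least 500 UMIs were ranked by Pearson correlation of log2(CPM + 10), as a description of points that share libraries and depth. The genes most like Prdm1 were Pou6f1 (0.92), Rnf138 (0.92) and Them4 (0.90). Those most like Irf4 were Fam214a (0.95), Serpinb1b (0.92) and Tmsb15b1 (0.91), and those most like Xbp1 were Kctd12 (0.96) and Zfhx3 (0.94).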

How the data were processed

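The 10 genes and all lists, rules and alternatives were chosen with earlier results of these data known. The authors deposited UMI counts for every gene in each barcode. Cell Ranger 3.0.1 and GRCm39 are named in the submitters' processing notes, but cellranger 5.0.1 per the file headers, a difference that was not resolved. The deposited clonotype frequency is a count of barcodes made by the authors, and clonotype sizes were taken from it.

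Barcodes had to show 200 genes or more, with less than 10% of UMIs mitochondrial. Scrublet (in scanpy 1.11.5, expected rate 0.08) scored doublets. Its automatic threshold marked 0 pBIC barcodes, so a score limit of 0.3, set after seeing this, was used for both and removed 496 (2.78%) and 396 (2.70%), leaving 17375 and 14271. A barcode entered the first class it met, except that CD8 T barcodes were taken by their rule alone. Of these, 115 in pBIC and 109 in pBIC10 were also counted as lymphoma, and 3 in pBIC10 in the Gstt1-positive set. Classes under 50 barcodes (7 per library rich in immunoglobulin, and 17 NK barcodes of pBIC10) were not compared. Empty droplets were not used here, so free RNA was not modelled.

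UMIs were summed per class and library. No test was possible between genotypes of 1 library each. Shares used 2000 UMIs drawn per barcode once, and co-detection the mean over all draws. The rule was tested on simulated data. All 10 members are named, and of each list up to 4 genes per direction with the bound farthest from no difference; some genes that this rule or the ranking of like genes names are not reported here. TMM factors came from edgeR 4.0.16 on the deposited counts. Python 3.11.15, numpy 2.4.6, pandas 2.3.3, scipy 1.17.1 and R 4.3.3 were used. Alternatives added after seeing the data left out barcodes found in both libraries, lymphoma barcodes under 5000 UMIs, or barcodes with genes of other classes.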

Additional observations from a re-analysis of the deposited data

Results flagged for a closer look

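Prdm1 and Xbp1 differed in opposite directions between the lymphomas when barcodes with Mki67 were set against those without, each ratio with a counting interval that excluded no difference. The log2 ratio of Prdm1 was -0.19 in pBIC and 0.38 in pBIC10, and that of Xbp1 -0.22 in pBIC and 0.38 in pBIC10. Lyz2 (1.06 and -0.58) and Cd3e (0.49 and -0.40), genes of other cell types, also changed sign in this division, and median depth was 19432 against 13590.5 UMIs in pBIC and 26780 against 9154 in pBIC10. Their part in it was not tested. Irf4 and Derl3 did so between the highest and lowest tertile of immunoglobulin share, Irf4 at -0.27 in pBIC and 0.68 in pBIC10, Derl3 at -0.35 in pBIC and 0.41 in pBIC10. The difference between the libraries was not tested in these 4 cases, since each has 1 tumour.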

How the results depend on the processing

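No paired analysis was possible because each genotype has 1 sample. In the lymphoma comparison, the members lower in pBIC10 went from 0 to 2 as a mean of per-barcode levels and 1 with a V segment limit of 3 UMIs, and the PRDM1-repressed genes higher from 1 to 2 under both. The Gstt1-positive set depended most on its limits. With Cd79a and no gene of another class, its members higher went from 4 to 0 and lower from 5 to 1, germinal centre genes higher from 4 to 2 and lower from 11 to 3, plasma cell genes higher from 4 to 2, PRDM1-repressed genes lower from 7 to 1, and NF-kappaB genes higher from 5 to 2 and lower from 7 to 4; Irf4 reversed to 0.15 and Xbp1 to -0.49. Without genes of other classes, members higher were 1 and lower 3, germinal centre genes lower 4, PRDM1-repressed genes lower 4, and Xbp1 reversed to -0.17. With 2 Gstt1 UMIs, members lower were 3, germinal centre genes lower 5 and NF-kappaB genes lower 4; with Cd79a, the last were 5 and 4. As a mean of per-barcode levels, germinal centre genes lower were 5 and PRDM1-repressed genes lower 4 and higher 3. The last went from 1 to 2 with Cd79a, with a V segment limit of 30 UMIs, without barcodes with T-cell receptor or Cd3e, and with lymphoma barcodes of at least 5000 UMIs. In CD8 T barcodes the log2 ratio of Prdm1 went from 0.52 to 0.72 (per-barcode mean) and 0.67 (TMM), and that of Irf4 from -0.17 to 0.18 and -0.028. The causes were not tested. Shares over all genes were not computed for the Gstt1-positive set under its narrower limits, which leave fewer UMIs. Its counts there are not read as results about the listed genes. The other counts stayed within 1.5 times, 222 in all. Depth limits Sdc1, Bcl6 and S1pr2, with at most 108 UMIs in a lymphoma. The alternatives on shared barcodes, on depth, and on Cd79a with genes of other classes were chosen after seeing the data.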

Other observations

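In each library 7 barcodes outside the lymphoma rule held at least 20% immunoglobulin UMIs, too few to compare. Their summed UMIs show the plasma cell members: Derl3 had 19 in pBIC and 76 in pBIC10, Xbp1 40 and 71, Mzb1 86 and 191, Sdc1 3 and 4, Tnfrsf17 3 and 2, and Jchain 979 and 1644, with 0 of Bcl6 in either. The 3 Tnfrsf17 UMIs of pBIC came from 1 barcode. Prdm1 had 14 and 18 UMIs and Irf4 14 and 3.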
